A study of Homo sapiens with 6 samples.

Results

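The genes described here are the replication-type histone genes, taken as every gene of the deposited table whose symbol begins with HIST1H, HIST2H, HIST3H or HIST4H. The table listed 47 such symbols among 17064 genes. HIST2H2AA3 with HIST2H2AA4, HIST2H3A with HIST2H3C, and HIST2H4A with HIST2H4B are copies that the table listed at the same values, and each pair was summed, which left 44 members. Of these, 22 had at least 10 expected counts in any of the 6 libraries, and 16 passed the count filter of the test.

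RNA was sequenced from MDA-MB-231, an established human line of triple-negative breast cancer derived from a metastatic site. Vector 1 and vector 2 carried the empty lentiCRISPRv2 virus. In the MRCKα KO library CDC42BPA was targeted, and in the MRCKβ KO library CDC42BPB. DKO 1 and DKO 2 had both genes targeted with different guide sets. MRCKα and MRCKβ are kinases that act downstream of the small GTPase CDC42 on actomyosin. All cells, controls included, were transduced and selected with puromycin or blasticidin, and they were pools rather than picked clones. The vector and DKO groups have 2 libraries each and the single knockouts 1 each, so only DKO against vector could be tested. Nothing ties the libraries to separate cultures beyond the transductions, and p-values measure only the spread between these samples.

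The libraries held between 10349898 and 10657857 expected counts. The line's markers were present, with VIM between 1532.08 and 2052.46 FPKM (fragments per kilobase of transcript, scaled to the reads of the library). Of the genes taken to be absent or low in it, ESR1, PGR and CDH1 stayed at or under 0.87 FPKM. GATA3, also of that list, was at 2.59 to 4.18 FPKM. Among markers of other cells, the T cell marker CD3E was at most at 0.06 FPKM, and COL1A2, DCN, LUM and VWF at most at 0.84. The fibroblast markers COL1A1 and PDGFRB reached 3.26 and 5.9 FPKM, the leukocyte marker PTPRC 1.24 and the endothelial marker PECAM1 1.88. The RNA of the targeted genes does not check the knockouts, since small insertions or deletions need not lower a transcript: CDC42BPA was at 36.43 and 23.32 FPKM in vector, 29.43 in MRCKα KO, and 28.31 and 26.06 in DKO. CDC42BPB was at 30.28 and 29.11 FPKM in vector, 25.7 in MRCKβ KO, and 23.42 and 23.47 in DKO. It was thus below both vector libraries wherever it was targeted. The library with only CDC42BPA targeted was also below both, at 27.29 FPKM, so the lower level was not limited to targeting of CDC42BPB.

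Replication-type histone genes supply the core histones H2A, H2B, H3 and H4 and the linker histone H1 that package newly made DNA, and most of them are transcribed in S phase. Their main mRNAs have no introns and no poly(A) tail. They end instead just after a short stem-loop that the protein SLBP binds, while the activator NPAT serves their promoters. Some members, among them HIST1H1C, HIST1H2AC, HIST1H2BD and HIST1H2BK, are also known to give polyadenylated transcripts. Whether the RNA was selected for poly(A) tails is not given in the sources used here.

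The stem-loop is shown for 5 members because it is the 3′ end that these genes share across classes. Of the 25 symbols behind the 22 members, 17 have reference sequence after the stop codon in GENCODE release 29 (GRCh38), and 15 of these 17 hold a stem-loop pattern there of GG, any 3 bases, TT, any base, T, any base, A, any 3 bases and CC. Searched over whole transcripts of any gene on the sense strand, that pattern was in 2.52% of 206694, and the commonest form among the members, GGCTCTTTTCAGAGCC, in 0.0121%. Capitals mark the 16 bases of the pattern.
HIST2H2AA3, chr1:149842218-149842243, minus strand: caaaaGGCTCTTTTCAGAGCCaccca
HIST1H2BC, chr6:26123467-26123492, minus strand: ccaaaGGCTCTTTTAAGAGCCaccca
HIST1H2AG, chr6:27133510-27133535, plus strand: ccaacGGCTCTTTTCAGGGCCaccca
HIST1H4H, chr6:26285126-26285151, minus strand: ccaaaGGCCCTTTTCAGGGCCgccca
HIST2H4A, chr1:149833027-149833052, plus strand: ccaaaGGCCCTTTTTAGGGCCgacca

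HIST2H2AC and the abundant HIST1H2BK and HIST1H1C have no sequence past the stop codon in that reference, so no stem-loop could be read for them. HIST1H2AC carries the same capital letters as HIST2H2AA3, and its reference transcripts run to 1668 bases, with up to 1128 bases after the stem-loop in those that hold it. The deposited table counted HIST1H2AC over 546 bases. For HIST2H2BE the table used 2223 bases, close to the 2194 bases of the long reference form. The length behind a value thus ends near the stem-loop for one gene and far past it for the other, and FPKM compares these 2 genes only on those lengths.

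The promoters differ by class. RefSeq windows of 250 bases before the start (GRCh38.p14) were matched for 43 of the 47 symbols. On both strands, the octamer ATTTGCAT, which OCT1 is known to bind, was in 9 of 13 H2B and 6 of 10 H2A windows and in none of the H1, H3 or H4 windows, against 1.66% of 27305 genes. Windows of head-to-head H2A and H2B genes cover nearly the same bases, so the same site can count in both classes. The octamer is shared in this way by HIST1H2AC and HIST1H2BC, HIST1H2AG and HIST1H2BJ, HIST1H2AJ and HIST1H2BM, HIST1H2AM and HIST1H2BO, and HIST2H2AC and HIST2H2BE. The H2A and H2B counts are therefore not independent. The H1 box AAACACA was in all 3 H1 windows and in no other member, against 4.95% of genes. CCAAT was in 36 of the 43 windows against 33.04% of genes, and TATAAA in 32 against 11.13%. No motif contains another, but TATAAA overlaps its own reverse strand in TTTATAAA. The promoters shown are those of the 2 most abundant members, of HIST1H2AC in its head-to-head pair with HIST1H2BC, and of the markers HIST2H2AA3 and HIST2H3D. Capitals mark any of the 4 motifs on either strand.
HIST1H2BK, chr6:27146859-27147108, minus strand: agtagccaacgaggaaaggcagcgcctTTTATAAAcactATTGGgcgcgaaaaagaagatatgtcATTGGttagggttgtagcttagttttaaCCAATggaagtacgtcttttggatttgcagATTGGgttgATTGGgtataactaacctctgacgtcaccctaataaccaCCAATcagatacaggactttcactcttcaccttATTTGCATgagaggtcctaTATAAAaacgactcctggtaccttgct
HIST1H1C, chr6:26056471-26056720, minus strand: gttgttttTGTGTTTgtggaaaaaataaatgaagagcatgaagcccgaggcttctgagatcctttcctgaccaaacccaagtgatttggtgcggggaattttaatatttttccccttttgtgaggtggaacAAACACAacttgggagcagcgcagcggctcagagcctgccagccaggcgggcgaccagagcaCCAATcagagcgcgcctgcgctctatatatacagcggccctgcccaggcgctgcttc
HIST1H2AC, chr6:26123922-26124171, plus strand: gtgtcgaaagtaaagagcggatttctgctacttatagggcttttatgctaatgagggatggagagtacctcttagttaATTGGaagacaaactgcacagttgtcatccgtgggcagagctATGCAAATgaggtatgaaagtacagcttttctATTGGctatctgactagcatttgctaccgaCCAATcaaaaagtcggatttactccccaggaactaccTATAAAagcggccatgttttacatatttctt
HIST2H2AA3, chr1:149842751-149843000, minus strand: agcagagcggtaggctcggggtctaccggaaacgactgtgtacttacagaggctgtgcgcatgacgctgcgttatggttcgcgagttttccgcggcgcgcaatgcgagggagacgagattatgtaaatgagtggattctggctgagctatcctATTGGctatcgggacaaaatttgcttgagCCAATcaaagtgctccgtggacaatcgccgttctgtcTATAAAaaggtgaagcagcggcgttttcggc
HIST2H3D, chr1:149813694-149813943, minus strand: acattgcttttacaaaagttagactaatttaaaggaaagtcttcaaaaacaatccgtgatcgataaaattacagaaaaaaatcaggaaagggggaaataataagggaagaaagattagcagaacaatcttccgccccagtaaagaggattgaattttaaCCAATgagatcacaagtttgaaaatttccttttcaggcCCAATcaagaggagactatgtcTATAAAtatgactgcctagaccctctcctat

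In the HIST1H2BK window the octamer begins 46 bases before the start and a TATAAA 27 bases before it. The HIST1H1C window holds the H1 box at 242 and 119 bases before the start and a CCAAT at 57. The HIST2H2AA3 and HIST2H3D windows hold CCAAT and TATAAA but not these 8 letters of the octamer. The window of HIST1H2AC is also that of HIST1H2BC read the other way, since their starts lie 246 bases apart. These matches describe letters, not binding.

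The histone genes took very few reads. Together the 44 members held between 1322.01 and 2266.04 counts per library, or 0.01277% to 0.02166% of a library. HIST1H2BK, an H2B gene, gave 44.68% of all member counts and HIST1H1C, a linker histone gene, a further 22.72%. The first 7 members gave 89.34%. The other end of the list was near the limit of detection: 22 members stayed below 10 counts in each library, and the HIST3 and HIST4 genes HIST3H2BB, HIST3H3 and HIST4H4 had at most 3 counts. A count of 0 allows up to 3 counts at this depth, and intervals given here cover counting error only. In bulk RNA, fewer cells in S phase and less histone RNA per cell cannot be told apart.

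**Figure D1:**
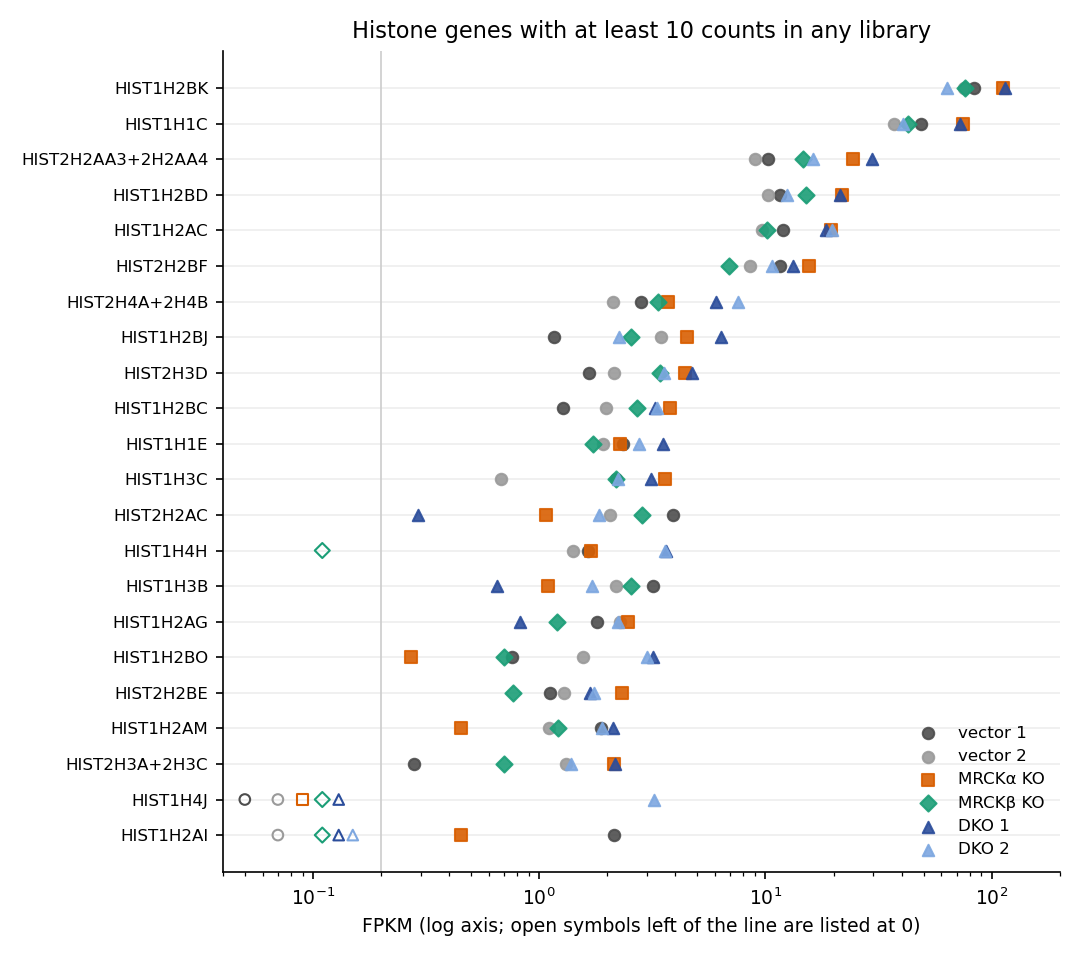
FPKM of the 22 members with at least 10 counts in any library, on a log axis, with 1 symbol per library and open symbols for values listed at 0. HIST1H2BK lies between 63.79 and 114.1 and HIST1H1C between 36.92 and 74.42, and the MRCKα KO and DKO 1 symbols lie to the right in most of the upper rows.

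Summed over the members, the libraries split into a higher pair and a lower group of 4. The summed level in CPM, the counts scaled to the TMM-adjusted library size, was 148.7 and 129.2 for vector 1 and vector 2, 215.0 for the MRCKα and 136.4 for the MRCKβ knockout, and 215.7 and 137.0 for DKO 1 and DKO 2, an order in which pairs of values are given throughout. MRCKα KO and DKO 1 were thus higher than both vector libraries, while MRCKβ KO and DKO 2 lay between them. The DKO mean of 176.3 ± 55.7 (SD, n = 2) was 1.27 times the vector mean of 139.0 ± 13.8 (SD, n = 2), and the groups overlapped. Without DKO 1 the log2 ratio of 0.34 became -0.021, and without DKO 2 it became 0.63, so 1 library decides it.

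The order changed once HIST1H2BK, the member with the most counts, was left out. The summed CPM was then 78.4 and 65.27 in vector and 121.8 and 84.69 in DKO, whose mean was 1.44 times the vector mean. Without HIST1H2BK and HIST1H1C the summed CPM was 43.86 and 38.88 in vector, 68.47 in the MRCKα and 41.69 in the MRCKβ knockout, and 70.61 and 56.48 in DKO. Both DKO libraries then lay above both vector libraries, at 1.54 times the vector mean. By class the DKO mean over the vector mean was 1.31 for H1, 1.64 for H2A, 1.16 for H2B, 1.44 for H3 and 2.05 for H4. The H2A, H3 and H4 sums did not overlap between the groups, and the H1 and H2B sums did. The H3 and H4 sums rest on few reads. H3 had 42 and 37 counts in vector and 63 and 52 in DKO. H4 had 28 and 24 counts in vector and 52 and 56 in DKO. By gene cluster the ratio was 1.22 for HIST1 on chromosome 6 and 1.68 for HIST2 on chromosome 1, with the HIST2 sums of 16.63 and 14.74 CPM in vector below the 30.07 and 22.49 in DKO.

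**Figure D2:**
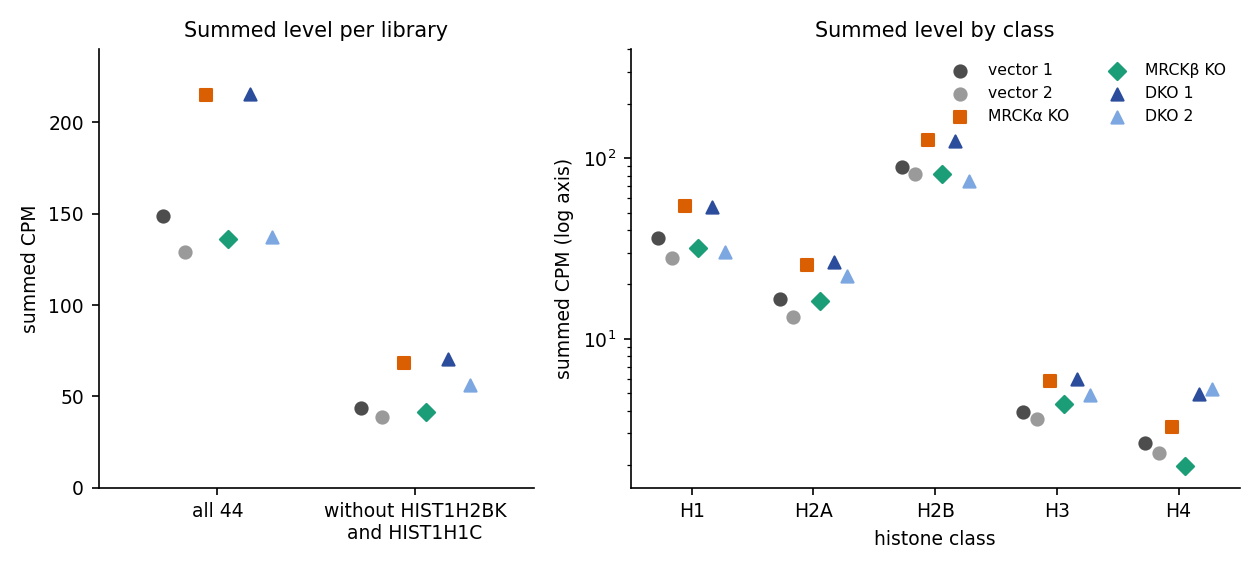
Summed CPM of the members per library, for all 44 members and without the 2 most abundant ones (left, linear axis) and by histone class (right, log axis). MRCKα KO and DKO 1 are highest in H1 and H2B, whereas in H4 both DKO libraries (4.95 and 5.27) lie above the other 4.

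HIST1H1C (chr6:26055787-26056428) encodes linker histone H1.2, which binds DNA between nucleosomes. It was at 48.63 and 36.92 FPKM in the vector libraries, 74.42 in the MRCKα and 42.74 in the MRCKβ knockout, and 72.83 and 40.41 in DKO. MRCKα KO and DKO 1 were high, and DKO 2 lay between the vector libraries. The other H1 member with enough counts, HIST1H1E, was at 2.35 and 1.91 FPKM in the vector libraries, 2.28 in the MRCKα and 1.73 in the MRCKβ knockout, and 3.52 and 2.75 in DKO. Both DKO libraries were above the vector libraries for this gene, on 28 and 22 counts against 19 and 15. The ratios to vector had 95% counting intervals reaching past 1, at 1.63 (0.954 to 2.77) for DKO 1 and 1.27 (0.706 to 2.23) for DKO 2.

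Among the H2A genes, the summed HIST2H2AA3 and HIST2H2AA4 (chr1:149842188-149842736 and chr1:149851061-149851624) had the highest mean over the 6 libraries, as a sum of 2 genes, though HIST1H2AC was higher in both vector libraries and in DKO 2. The pair was at 10.22 and 9.04 FPKM in the vector libraries, 24.34 in the MRCKα and 14.64 in the MRCKβ knockout, and 29.48 and 16.22 in DKO. All 4 knockout libraries lay above both vector libraries. DKO 1 exceeded DKO 2 by 1.84 times (95% counting interval 1.4 to 2.42).

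HIST1H2AC (chr6:26124145-26139116) was at 11.94 and 9.65 FPKM in the vector libraries, 19.55 in the MRCKα and 10.15 in the MRCKβ knockout, and 18.61 and 19.66 in DKO. Both DKO libraries were above both vector libraries and close to each other, with a DKO 1 to DKO 2 ratio of 0.956 (95% counting interval 0.721 to 1.27). Here DKO 2 was as high as DKO 1, unlike HIST1H1C. The MRCKβ KO library lay between the vector libraries.

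HIST2H2AC and HIST1H2AM are low H2A genes that went the other way in MRCKα KO. HIST2H2AC was at 3.92 and 2.06 FPKM in the vector libraries, 1.07 in the MRCKα and 2.85 in the MRCKβ knockout, and 0.29 and 1.84 in DKO. HIST1H2AM was at 1.88 and 1.1 FPKM in the vector libraries, 0.45 in the MRCKα and 1.21 in the MRCKβ knockout, and 2.11 and 1.89 in DKO. These levels rest on few reads, between 1.24 and 17.01 counts for HIST2H2AC and between 2.11 and 10.1 for HIST1H2AM. HIST1H2AM shares 87.1% of its 50-base coding words with transcripts of other genes, most of them with HIST1H3J. The reference span of HIST1H3J (chr6:27890382-27893106) overlaps that of HIST1H2AM (chr6:27892757-27893149). The coding words of HIST1H3J itself are shared at 0.0%, so most of the 87.1% reflects overlapping annotation. The level of HIST1H2AM stays uncertain on its few counts. HIST2H2AC shares 30.8% with genes such as HIST2H2AA3 and HIST2H2AA4, and summing all 3 gave 72.01 and 56.0 counts in the vector libraries, 132.01 in the MRCKα and 91.0 in the MRCKβ knockout, and 157.06 and 94.0 in DKO. HIST1H2AG, between 0.82 and 2.47 FPKM, was lowest in DKO 1.

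HIST1H2BK (chr6:27146418-27146798) was the most abundant H2B gene. Its level was 83.33 and 75.28 FPKM in the vector libraries, 112.57 in the MRCKα and 76.31 in the MRCKβ knockout, and 114.1 and 63.79 in DKO. DKO 1 was the highest and DKO 2 the lowest library of the 6, and DKO 1 over DKO 2 was 1.8 (95% counting interval 1.62 to 2.0). HIST1H2BD (chr6:26158146-26171349) was at 11.61 and 10.22 FPKM in the vector libraries, 21.77 in the MRCKα and 15.1 in the MRCKβ knockout, and 21.4 and 12.47 in DKO. On the count scale its DKO 2 value of 8.645 CPM lay between the vector values of 9.333 and 8.053 CPM, so the order of these libraries depends on the effective length that goes into FPKM.

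HIST1H2BC, a marker of the set, was at 1.28 and 1.98 FPKM in the vector libraries, 3.79 in the MRCKα and 2.7 in the MRCKβ knockout, and 3.24 and 3.32 in DKO. All 4 knockout values lay above both vector values, from between 5.55 and 16.03 counts. HIST2H2BF was at 11.63 and 8.53 FPKM in the vector libraries, 15.57 in the MRCKα and 6.93 in the MRCKβ knockout, and 13.3 and 10.72 in DKO, with overlapping groups. HIST2H2BE was at 1.12 and 1.29 FPKM in the vector libraries, 2.32 in the MRCKα and 0.77 in the MRCKβ knockout, and 1.68 and 1.75 in DKO.

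MRCKα KO was the highest and MRCKβ KO the lowest library for both of these HIST2 genes. HIST1H2BJ was at 1.16 and 3.45 FPKM in the vector libraries, 4.48 in the MRCKα and 2.55 in the MRCKβ knockout, and 6.34 and 2.26 in DKO. Vector 1 was at 0.362 times vector 2 (95% counting interval 0.116 to 0.974), so the controls themselves differed for this gene. HIST1H2BO had between 0.27 and 1.56 FPKM outside DKO and 3.19 and 2.99 FPKM in DKO, on at most 14.58 counts.

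Among the H3 genes, HIST2H3D (chr1:149813271-149813681) had the highest mean over the 6 libraries, though HIST1H3B was higher in both vector libraries. Its level was 1.66 and 2.15 FPKM in the vector libraries, 4.39 in the MRCKα and 3.41 in the MRCKβ knockout, and 4.75 and 3.57 in DKO. All 4 knockout libraries were above vector, as for HIST1H2BC, on between 7.56 and 21.22 counts. Both genes had under 10 counts in both vector libraries. In MRCKβ KO their ratios of 1.74 (95% counting interval 0.808 to 3.7) and 1.69 (0.713 to 3.93) had intervals reaching past 1. In MRCKα KO both intervals lay above 1. How many of all genes show the pattern was not counted. HIST1H3C was at 2.19 and 0.68 FPKM in the vector libraries, 3.6 in the MRCKα and 2.19 in the MRCKβ knockout, and 3.12 and 2.22 in DKO. HIST1H3B was at 3.18 and 2.18 FPKM in the vector libraries, 1.09 in the MRCKα and 2.55 in the MRCKβ knockout, and 0.65 and 1.72 in DKO. This was the 1 tested member with both DKO libraries below both vector libraries, on between 3 and 15 counts. The summed HIST2H3A and HIST2H3C were between 0.28 and 2.16 FPKM.

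The H4 genes were low in each library. The summed HIST2H4A and HIST2H4B (chr1:149832659-149839767 and chr1:149854045-149861210) were at 2.82 and 2.12 FPKM in the vector libraries, 3.7 in the MRCKα and 3.34 in the MRCKβ knockout, and 6.02 and 7.56 in DKO. HIST1H4H (chr6:26277609-26285638) was at 1.64 and 1.41 FPKM in the vector libraries, 1.69 in the MRCKα and 0 in the MRCKβ knockout, and 3.63 and 3.61 in DKO. For both, DKO 2 was about as high as DKO 1, and the MRCKα KO value was nearer to vector than to DKO. HIST1H4J had 11 counts in DKO 2 and 0 elsewhere, but its coding sequence is the same as that of HIST1H4K, which had 0 counts in DKO 2 alone. Their sum, made after the values were seen, was 6 and 6 counts in the vector libraries, 8 in the MRCKα and 3 in the MRCKβ knockout, and 4 and 11 in DKO.

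Against vector, none of the 16 tested members passed the threshold in DKO (edgeR's quasi-likelihood test, Benjamini-Hochberg adjusted p = 0.9997 for each). The background was the same, with 0.0% of 13121 genes called. DESeq2 called 4 genes (0.0305%) and no member, and 311 genes (2.37%) had an unadjusted p under 0.05 in edgeR. The highest fitted changes on the log2 scale were 1.42 ± 0.49 (SE) for HIST2H4A with HIST2H4B, 1.36 ± 0.61 for HIST1H2BO and 1.23 ± 0.36 for HIST2H2AA3 with HIST2H2AA4. The largest negative values were -1.18 ± 0.69 for HIST1H3B and -0.43 ± 0.69 for HIST1H2AG.

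Unadjusted p-values under 0.05 were found for 3 of the 16, each higher in DKO, beside 1.35% of all genes higher and 1.02% lower. They were HIST2H2AA3 with HIST2H2AA4, HIST2H4A with HIST2H4B, and HIST1H2AC (log2 fold change 0.80 ± 0.27). The markers HIST2H3D and HIST1H2BC had log2 fold changes of 1.09 ± 0.52 and 0.97 ± 0.56, with unadjusted p-values over the threshold. The 2 most abundant genes had 0.13 ± 0.27 for HIST1H2BK, the smallest change of the 16, and 0.39 ± 0.30 for HIST1H1C. All of these fail the correction over all genes.

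The fitted change was positive for 14 of 16 members, beside 49.3% of all genes, and its median was 0.67 beside -0.0023 over all genes. Both DKO libraries lay above both vector libraries for 9 members (14.4% of all genes) and below for 1 (14.6%). These counts do not stand as support, because HIST1H2BC, HIST1H2BO, HIST1H4H and HIST2H3D had under 10 counts in both vector libraries and passed the filter through DKO. Among the 8 members with at least 10 counts in every library, DKO lay above vector for 4 (14.5% of such genes) and below for 0 (14.8%). The 4 were HIST1H1E, HIST1H2AC, HIST2H2AA3 with HIST2H2AA4, and HIST2H2BE, and the median change of the 8 was 0.45.

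**Figure D3:**
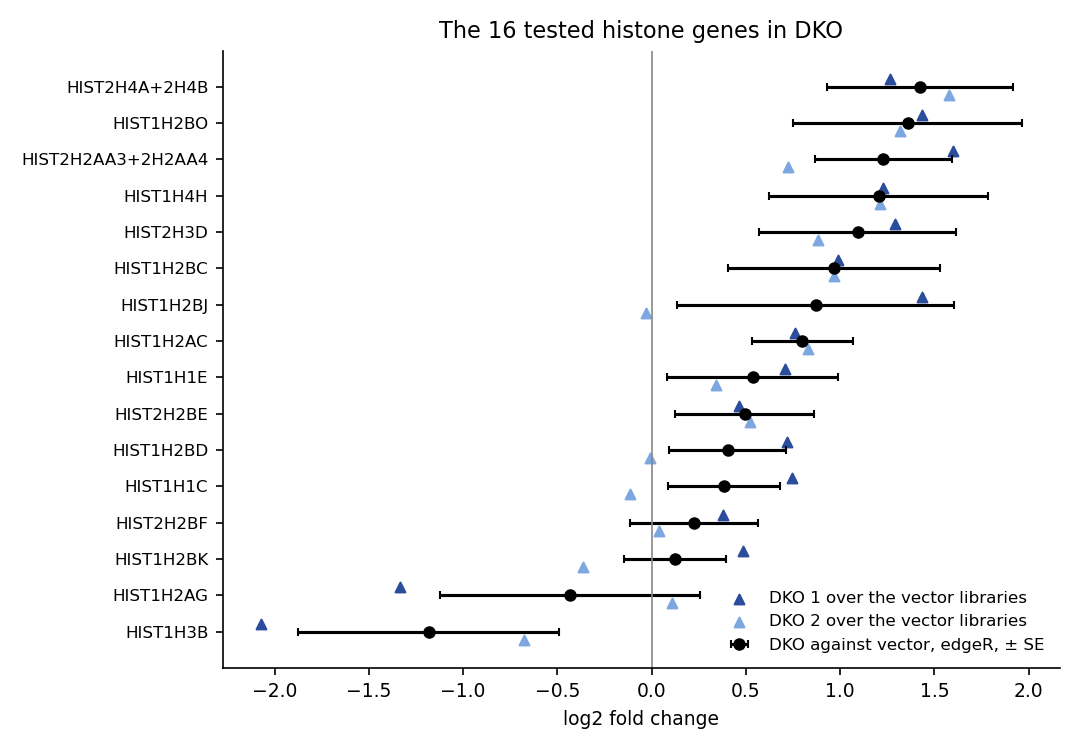
log2 fold change of the 16 tested members in DKO against vector, with black points and bars for the edgeR estimate ± SE and triangles for each DKO library over the summed vector libraries. For HIST1H2AC, HIST1H2BC and HIST1H4H the triangles nearly meet, whereas for HIST1H2BK they lie at 0.48 and -0.36 on either side of 0.

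The DKO libraries differed from each other for the most abundant members. Over the 16 members the median absolute log2 ratio of DKO 1 to DKO 2 was 0.375, against 0.166 over all genes. Between the vector libraries it was 0.322 against 0.243. These medians were not matched for count level, and the 16 include members with few counts, such as HIST1H4H with a mean of 7.167. DKO 1 over DKO 2 had a 95% counting interval above 1 for 4 of the 8 members with at least 10 counts in every library, beside 19.2% of such genes, and below 1 for 0, beside 17.6%. These 4 were HIST1H1C at 1.82 (1.57 to 2.1), HIST1H2BK, HIST1H2BD at 1.65 (1.27 to 2.16) and HIST2H2AA3 with HIST2H2AA4. HIST1H2AC and HIST2H2BE, at 0.956 and 0.963, did not share this difference.

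The rule in the study's methods was a 2-fold change of FPKM after leaving out genes over 2-fold apart between replicates. Its results also mention leaving out poorly expressed genes, without a cutoff, and here at least 10 counts in any library were asked for. In DKO, 13 of the 22 members could be rated, and 5 were at least 2-fold higher, beside 0.683% of genes, and 0 lower, beside 0.433%. They were HIST2H4A with HIST2H4B (log2 ratio 1.46), HIST1H4H (1.25), HIST2H2AA3 with HIST2H2AA4 (1.25), HIST2H3D (1.13) and HIST1H2BC (1.01). The rule has no test, and 4 of the 5 rest on fewer than 30 counts in each library. HIST1H2BC, HIST1H4H and HIST2H3D had under 10 counts in both vector libraries and were kept through the libraries where they were high, so the count of 5 does not stand as support.

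MRCKα KO had 1 library, so its values have no replicate check. With at least 10 counts in every library, 8 of 8 members were higher than the vector mean, beside 50.2% of such genes. For 7 of the 8 the 95% counting interval of the ratio lay above 1 (20.3% of such genes) and for 0 below (20.1%). The ratios were 2.49 (1.91 to 3.27) for HIST2H2AA3 with HIST2H2AA4, 1.93 (1.3 to 2.86) for HIST2H2BE, 1.81 (1.46 to 2.25) for HIST1H2BD, 1.78 (1.36 to 2.34) for HIST1H2AC, 1.72 (1.53 to 1.93) for HIST1H1C, 1.52 (1.11 to 2.07) for HIST2H2BF and 1.4 (1.29 to 1.52) for HIST1H2BK. HIST1H1E was at 1.06 (0.563 to 1.93). The controls also differed in 1 direction over these genes: vector 1 was above vector 2 for 7 of the 8, beside 50.1%, with the interval above 1 for 1 of them, HIST1H1C, beside 26.2%.

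The members past 2-fold in MRCKα KO went both ways. All of them but HIST2H2AA3 with HIST2H2AA4 had under 10 counts in some library. By the 2-fold rule on FPKM, HIST2H2AA3 with HIST2H2AA4 (log2 ratio 1.34), HIST1H2BC (1.22) and HIST2H3D (1.20) were higher, 3 of 16 members that could be rated beside 1.33% of genes. HIST1H2AM (-1.73), HIST2H2AC (-1.48) and HIST1H3B (-1.30) were lower, again 3 of 16, beside 1.87%. The lower 3 had between 2 and 5 counts in MRCKα KO, and their counting intervals reached past 1, as in 0.4 (0.12 to 1.06) for HIST1H3B. Members enter the list by their highest library, so these counts do not stand as support. Without the filter on replicates the rule took 10 members in place of 6, and against vector 1 or vector 2 alone, where that filter on the controls falls away too, 11 and 9.

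In MRCKβ KO none of 15 rated members was 2-fold higher, beside 1.13% of genes, or lower, beside 1.16%. Against vector 1 or vector 2 alone, with no filter on the controls, the count was 4 and 2, and with both but without the filter it was 0. Of the 8 members with at least 10 counts in every library, 2 were higher than the vector mean, beside 49.6%. HIST2H2AA3 with HIST2H2AA4 was the 1 gene whose interval lay above 1, at 1.52 (1.12 to 2.07), beside 20.7% of such genes. HIST1H1C, at 0.994 (0.866 to 1.14), and HIST1H2BK, at 0.958 (0.873 to 1.05), were close to vector. Set directly against each other, MRCKα KO was above MRCKβ KO for 8 of these 8 members, beside 50.3%, and the interval lay above 1 for 7, beside 19.6%. All comparisons with vector share the same 2 control libraries.

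**Figure D4:**
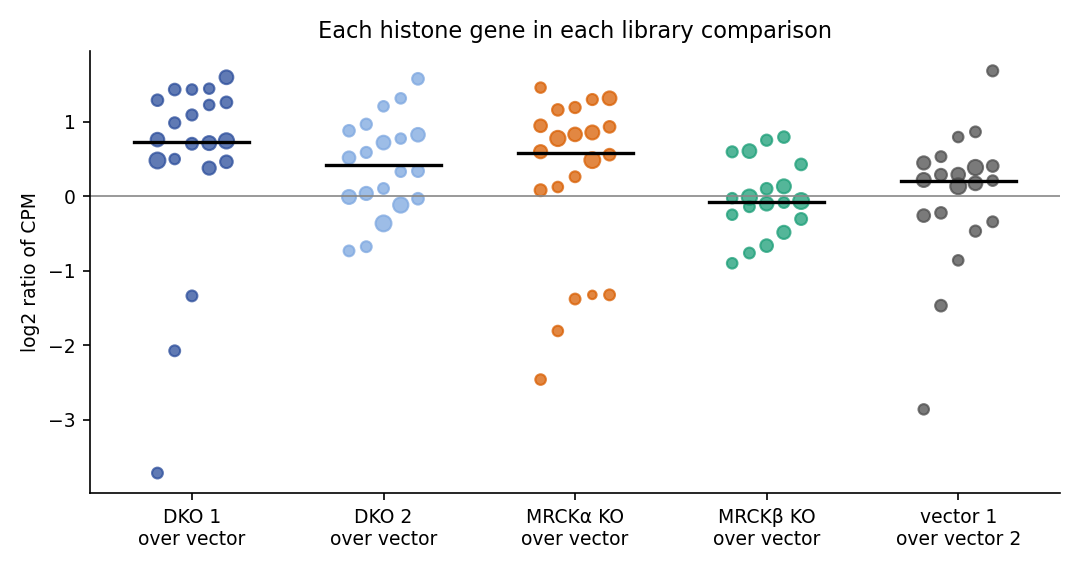
log2 ratio of CPM for the 22 members in 5 library comparisons, with point size following the mean count and a black bar at the median of the members. The medians are 0.73 for DKO 1, 0.42 for DKO 2, 0.59 for MRCKα KO, -0.07 for MRCKβ KO and 0.21 for vector 1 over vector 2, as a description of members kept by their highest library. Genes with 0 counts on either side have no point but enter the medians, with 0 on both sides taken as no change.

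Among the 47 symbols, 16 form 8 head-to-head pairs of an H2A and an H2B gene, with starts 194 to 248 bases apart, and levels within most pairs were unequal. HIST1H2BK was at a mean of 87.56 FPKM over the 6 libraries, and its partner HIST1H2AH at 0.695. In the HIST1H2BC pair the order was turned, with 2.718 FPKM for HIST1H2BC and 14.93 for HIST1H2AC. HIST1H2AM and HIST1H2BO were nearly level at 1.44 and 1.578 FPKM. The pair of HIST1H2BJ and HIST1H2AG was at 3.373 and 1.798 FPKM.

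The coding sequence of several members is shared with other genes over stretches of 50 bases. Coding sequence is only a part of the counted length for some. HIST2H2BE and HIST1H2BK have 378 coding bases each and were counted over 2223 and 859.3 bases. For these genes a share of coding words does not show that their reads cannot be told apart. The share of 50-base words of the coding sequence that occur in another gene's transcripts was 100% for the summed copies. It was 87.1% for HIST1H2AM, mostly with the overlapping HIST1H3J, and 81.1% for HIST2H3D. HIST2H2BF was at 75.1%, HIST1H2BK at 73.9% and HIST2H2BE at 52.9%. HIST1H2BC and HIST1H2BD shared 15.8% and 13.4%, HIST1H2AC 2.1%, and HIST1H1C and HIST1H1E 0.0%. HIST1H2AI had 10 counts in vector 1 and 2.06 or fewer elsewhere, but with HIST1H2AJ, which shares 84.5% of its words, the sum was 10 and 7 in the vector libraries, 11 in the MRCKα and 3 in the MRCKβ knockout, and 5 and 7 in DKO.

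The summed replication genes did not follow the histone order. The 45 genes of the S phase and replication list summed to 4962 and 5918 CPM in the vector libraries, 5135 in the MRCKα and 4526 in the MRCKβ knockout, and 4947 and 5363 in DKO. MRCKα KO and DKO 1, the high histone libraries, lay between the vector libraries or just below them. No gene of the list passed the edgeR test after Benjamini-Hochberg adjustment, the median log2 fold change was -0.06, and 2 genes had an unadjusted p under 0.05, both lower in DKO.

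These were TYMS, which makes thymidylate, and PRIM1, a subunit of the DNA primase. TYMS was at 132.45 and 165.99 FPKM in the vector libraries, 126.1 in the MRCKα and 116.47 in the MRCKβ knockout, and 122.42 and 98.75 in DKO. PRIM1 was at 22.48 and 24.27 FPKM in the vector libraries, 20.85 in the MRCKα and 18.79 in the MRCKβ knockout, and 17.92 and 17.05 in DKO. Both were lower in DKO than in vector (edgeR log2 fold change -0.45 ± 0.17 and -0.44 ± 0.14), with a Benjamini-Hochberg adjusted p = 0.9997.

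The replication clamp gene PCNA was at 135.35 and 152.75 FPKM in the vector libraries, 153.47 in the MRCKα and 141.62 in the MRCKβ knockout, and 141.4 and 150.84 in DKO. The proliferation marker MKI67 was at 68.71 and 65.41 FPKM in the vector libraries, 82.18 in the MRCKα and 58.28 in the MRCKβ knockout, and 72.92 and 79.22 in DKO. MRCKα KO was highest for MKI67, as for many histone genes, and MRCKβ KO was lowest for it. For PCNA, MRCKα KO and vector 2 were nearly level, at 153.47 and 152.75 FPKM. DKO 2 was above DKO 1 for both genes, unlike the histone sum. The part of proliferation in the histone values was not tested. None of the 24 mitosis genes had an unadjusted p under 0.05 (median log2 fold change -0.06).

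SLBP and NPAT, which serve histone mRNA and histone promoters, were ordered differently across the libraries. SLBP was at 57.93 and 64.85 FPKM in the vector libraries, 58.47 in the MRCKα and 49.8 in the MRCKβ knockout, and 56.65 and 69.59 in DKO. NPAT was at 10.31 and 10.49 FPKM in the vector libraries, 11.26 in the MRCKα and 9.5 in the MRCKβ knockout, and 11.49 and 8.89 in DKO. SLBP was highest in DKO 2 and lowest in MRCKβ KO. NPAT had the same top pair, DKO 1 and MRCKα KO, and the same lowest library, DKO 2, as HIST1H2BK, over a narrower range, and its part in the histone values was not tested. Of 34 tested genes for transcription and 3′ end processing, 16 for histone mRNA decay and 30 histone chaperones, none had an unadjusted p under 0.05 in edgeR. Their median log2 fold changes were -0.06, 0.06 and -0.07.

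Replacement histone genes, whose mRNAs mostly carry poly(A) tails, ranged from high levels to a few reads. H2AFZ (H2A.Z) lay between 356.1 and 404.17 FPKM, H3F3A between 261.96 and 304.26 and H3F3B between 110.58 and 141.17, both encoding H3.3, and the linker histone gene H1F0 between 175.32 and 221.37. H2AFX, at 74.3 to 110.98 FPKM, and H1FX, at 49.03 to 65.73, were lower. H2AFJ, at 5.66 to 8.43 FPKM, lay below HIST1H2BK, HIST1H1C, HIST1H2BD and HIST1H2AC in each library, and H1FOO, H2AFY2, H2BFM, H2BFWT and H3F3C were at 0.87 FPKM or less. HIST1H2BK, the most abundant replication-type gene, was above H1FX in each of the 6 libraries, by the least in DKO 2, at 63.79 against 63.49 FPKM. None of the 10 tested replacement histone genes had an unadjusted p under 0.05 (median log2 fold change -0.04). Of 33 other RNAs without a poly(A) tail that were looked for, such as RMRP and RN7SK, the table listed 0.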

How the data were processed

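RNA of 6 MDA-MB-231 libraries was sequenced by BGI as single-end reads. The deposited expected counts are reads per gene estimated by the authors' provider, not normalized and not always whole. The deposited FPKM values were computed there from these counts, the transcript length and the library total. The labels list Bowtie2, HISAT and RSEM and the build GRCh38.p11, without roles or versions.

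Samples were grouped by the labels. Copies were summed, expected counts were rounded, and DKO was compared with vector in edgeR 4.0.16 (filterByExpr, TMM, glmQLFit and glmQLFTest, no replicate block) over 13121 genes in R 4.3.3. P-values were adjusted by Benjamini-Hochberg, and an adjusted p under 0.05 was the threshold. The procedure was tested on simulated counts. CPM are counts scaled to the TMM-adjusted library size. Ratios between libraries have exact 95% binomial counting intervals, which cover counting error only. Single knockouts had 1 library and no test. The 2-fold rule on FPKM followed the study's methods, over genes with at least 10 counts in any library. Genes at 0 in 1 replicate of a compared group, or in a whole group, were also left out. Alternatives were DESeq2 1.42.0, limma 3.58.1 (log2 of FPKM plus 0.1 or plus 1, mean FPKM 0.5 or more), other normalizations and filters, all 6 libraries in 1 fit, separate copies, a replicate block and each replicate left out.

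The members and lists were chosen with earlier results of these data known. Genes named are the markers, the 12 highest by mean FPKM, those with an unadjusted p under 0.05 or past the 2-fold rule, the 5 highest and 5 lowest by fold change, the highest of each class, and fixed genes of the context lists with any of their genes at an unadjusted p under 0.05. HIST1H2AG, HIST1H2BO, HIST1H4J, HIST1H4K, HIST1H2AI, HIST1H2AJ and the head-to-head partners were named after their values were seen. So were H2AFJ, H1FOO, H2AFY2, H2BFM, H2BFWT and H3F3C of the replacement histone list. Stem-loops come from GENCODE release 29 (GRCh38) and promoters from RefSeq (GRCh38.p14), whose patch differs from that of the files.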

Additional observations from a re-analysis of the deposited data

How the results depend on the processing

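No histone gene passed the threshold under any alternative, and the lowest adjusted p of the 14 named members over the 14 alternatives of the fit was 0.4694. Of 190 values of these members, 186 kept their sign. The 4 reversals came without DKO 1. With 1 replicate left out, HIST1H1C ran from -0.11 to 0.75, HIST1H2BD from -0.0050 to 0.72, HIST1H2BJ from -0.038 to 1.76 and HIST1H2BK from -0.36 to 0.48, the lowest value without DKO 1 in each. The number of genes called was 4 with DESeq2 and between 0 and 5 with 1 replicate left out, where the lone library is assumed to vary like the other group. The median change of the members was 0.45 with at least 10 counts in every library (8 members), 0.47 with limma on log2(FPKM + 1), 0.83 with copies kept apart, and 0.43 to 0.76 with 1 replicate left out. The summed log2 ratio ran from -0.021 to 0.63 with 1 replicate left out, and was 0.52 without the member with the most counts.

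The 2-fold rule took 6 members in MRCKα KO, but 1 with a pseudocount of 1, 10 without the replicate filter, and 9 to 11 with 1 vector library left out. In MRCKβ KO it took 0, but 1 with a pseudocount of 0.1 or of 1, 2 when a mean FPKM of 1 or more was asked for, and 2 to 4 with 1 vector library left out. In DKO it took 5, but 2 with a pseudocount of 1 and 9 without the replicate filter. The replicate filter also sets how many members are rated: without it, 21 in place of 16 in MRCKα KO and 20 in place of 13 in DKO. How much of the shifts this accounts for was not tested.

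With the replicate block, 5 genes were called, none of them a member. The numbers are shared in the labels, but nothing ties vector 1 to DKO 1. The differences between replicate 1 and 2 in both groups had r = 0.334 across 13121 genes, which are not independent replicates, and 2 pairs do not establish a pairing. The block changed no member's call. Few counts limit most members: 14 of the 22 had under 10 counts in at least 1 library.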
